A study of Ovis aries with 3 samples.

Results

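The genes described here are 8 genes of the heat shock response: *HSPA1A*, *HSPA6*, *HSPA8*, *DNAJB1*, *HSPH1*, *BAG3*, *HSPB1* and *ZFAND2A*. They were chosen by symbol, and all 8 have a row among the 26478 genes of the count matrices. The choice was made knowing that *HSPA6* and *HSPA1A* differed in the opposite sense to *ZFAND2A* between the day 19 libraries. Their values in that comparison are therefore a description, and the question they address is whether the response differed as a whole, as in a stress of dissociation, or gene by gene.

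Whole sheep embryos were profiled by droplet single-cell RNA-seq in 3 libraries, 1 per group. E19 HSTS is a Hulunbuir short-tailed sheep embryo of embryonic day 19, a breed that the study describes as carrying a missense mutation in *T* (brachyury), the mesoderm and notochord transcription factor. E19 HS and E16 HS are Hu sheep, a longer-tailed breed with the wild-type *T* allele, at days 19 and 16. The label of E16 HS names a single embryo while the design text counts 3 for that stage, and whether its cells were pooled could not be settled. At day 19, breed, embryo and library cannot be told apart. Between the Hu sheep libraries, embryonic day, embryo and library cannot be told apart either, and the groups carry no treatment. Per the study, embryos were kept cold in storage solution, digested with collagenases and treated with red blood cell lysis buffer on ice, by the same procedure for all.

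The heat shock response restores protein folding after heat, toxic metals or other damage. Its main transcription factor, HSF1, is held inactive by chaperones and released when unfolded proteins occupy them. HSP70 proteins bind exposed hydrophobic stretches in a cycle driven by ATP, in which J proteins such as DNAJB1 deliver substrates and stimulate hydrolysis, and HSP110 (HSPH1) and BAG proteins exchange the nucleotide. *HSPA1A* and *HSPA6* are induced by stress, *HSPA8* is made constitutively, and some members serve normal development, such as *HSPB1* in heart and muscle. Warm enzymatic digestion of tissue is known to induce immediate early and heat shock genes in single-cell preparations.

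Values are unique molecular identifiers (UMIs) of a gene summed over the kept cells and scaled to 1000000 UMIs of those cells (CPM). A cell was kept if its genes numbered 200 to 6000, its UMIs 1000 to 30000 and its mitochondrial share did not pass 10%. Triplets of values without names below run E19 HSTS, E19 HS, E16 HS. Brackets give exact Poisson or conditional 95% intervals for sums and ratios and exact binomial ones for shares. They cover counting error only, so with 1 library per group no difference has a replicate check, and no p-value was computed. The kept cells numbered 9618, 10629 and 11329, with medians of 8675, 6900 and 9046 UMIs, and libraries shared 31 to 37 barcodes pairwise. Blood progenitor-like cells made up 27.4%, 13.4% and 17.7% of cells, and a level summed over a library cannot tell fewer cells of a type from less RNA per cell. Possible doublets were kept, since the doublet caller marked no cell in E19 HS.

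The 8 genes together differed little between the day 19 embryos, while single genes differed strongly and in both directions. Their summed level was 1831 CPM (1823 to 1839) in E19 HSTS, 1786 CPM (1777 to 1795) in E19 HS and 2361 CPM (2352 to 2370) in E16 HS. The constitutive *HSPA8* and the small heat shock protein gene *HSPB1* held 87.4%, 93.8% and 95.2% of these UMIs, so the sum mostly follows those 2 genes. Without *HSPA8*, the remaining 7 genes summed to 707, 758 and 1120 CPM. *HSPA6*, *HSPA1A* and *DNAJB1* alone summed to 170, 46.5 and 28.1 CPM, which is 3.65-fold (3.53 to 3.78) higher in E19 HSTS than in E19 HS.

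Of the 8 genes, 3 were at least 2-fold higher and 1 at least 2-fold lower in E19 HSTS than in E19 HS. Among all 11149 genes with at least 100 UMIs in the pair of libraries, 1.17% were at least 2-fold higher and 1.64% at least 2-fold lower, and the median log2 ratio was -0.05. In either direction the share was 2.82%. Since these genes were chosen on this comparison, nothing is read from their count. *HSPA6* stood 8th, *HSPA1A* 19th and *DNAJB1* 43rd from the top of all ratios, and *ZFAND2A* stood 6th from the bottom.

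**Figure D1:**
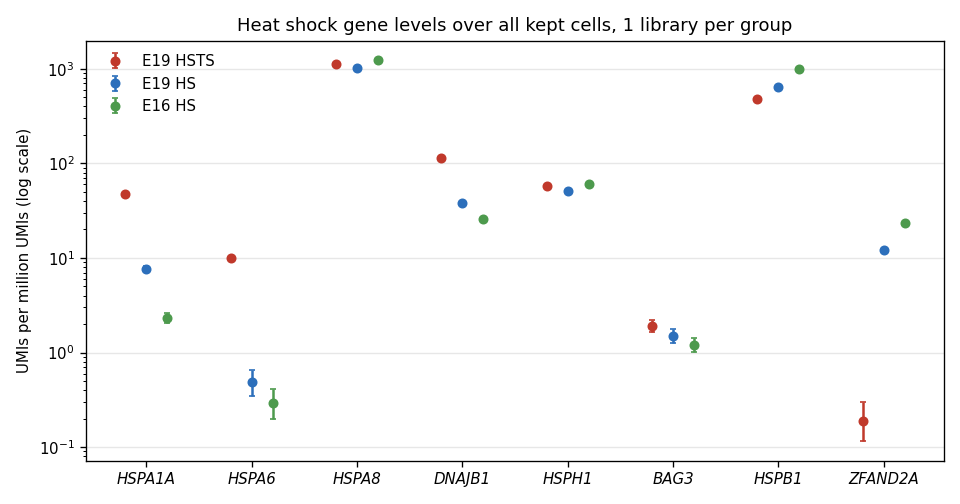
Level of each of the 8 genes in the 3 libraries, in CPM over the kept cells on a log axis, with exact Poisson 95% intervals for counting error only. *HSPA6*, *HSPA1A* and *DNAJB1* are highest in E19 HSTS, *ZFAND2A* is lowest there at 0.191 CPM, and *HSPA8* and *HSPH1* lie close together in all 3 libraries.

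*HSPA1A* encodes the classical inducible HSP70 of the cytosol. It measured 46.9 CPM (45.6 to 48.3) in E19 HSTS, 7.63 CPM (7.07 to 8.23) in E19 HS and 2.32 CPM (2.05 to 2.62) in E16 HS, from 4673, 677 and 263 UMIs. The 3 intervals do not overlap, and E19 HSTS was 6.15-fold (5.67 to 6.68) above E19 HS. At least 1 UMI was seen in 23.8%, 4.98% and 2.19% of cells. In cells thinned to 3000 UMIs, with the 1106, 1345 and 1317 shallower cells left out, the shares kept that order at 9.01%, 1.73% and 0.649%.

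*HSPA6* encodes a strictly inducible HSP70 that in human cells is nearly silent without stress. It measured 9.97 CPM (9.36 to 10.6) in E19 HSTS, 0.485 CPM (0.351 to 0.653) in E19 HS and 0.292 CPM (0.201 to 0.409) in E16 HS, from 993, 43 and 33 UMIs. The E19 HSTS library stood 20.6-fold (15.2 to 28.6) above E19 HS, while the intervals of the HS libraries overlap. Even in E19 HSTS 7.24% of cells had a UMI of it, and 1.83% after thinning. *HSPA1A*, *HSPA6* and the testis-type *HSPA1L* have closely related coding sequences, so how reads are divided among them is uncertain. *HSPA1L* measured 2.04, 2.49 and 1.52 CPM, with E19 HSTS below E19 HS.

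*HSPA8* encodes the constitutive HSP70, HSC70, which folds new proteins and uncoats clathrin vesicles. It measured 1124 CPM (1117 to 1131) in E19 HSTS, 1028 CPM (1021 to 1035) in E19 HS and 1241 CPM (1235 to 1248) in E16 HS. The day 19 ratio was 1.09 (1.08 to 1.10), so the constitutive and inducible HSP70 genes did not differ by the same factor. Its UMIs were seen in 96.4% to 98.1% of cells.

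*DNAJB1* encodes HSP40, the main stress-inducible J protein. It measured 113 CPM (111 to 115) in E19 HSTS, 38.4 CPM (37.1 to 39.7) in E19 HS and 25.5 CPM (24.6 to 26.5) in E16 HS, a day 19 ratio of 2.94 (2.83 to 3.05). Its order over the libraries was thus that of *HSPA1A* and *HSPA6*, with a smaller ratio. UMIs of it were seen in 44.0%, 22.4% and 20.5% of cells, and in 21.7%, 9.05% and 6.33% after thinning.

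*HSPH1*, the HSP110 nucleotide exchange factor and also a heat-inducible gene, measured 58.4, 50.9 and 60.5 CPM, with a day 19 ratio of 1.15 (1.10 to 1.19). *BAG3*, an HSP70 co-chaperone of selective autophagy that HSF1 induces, measured 1.90, 1.51 and 1.21 CPM from 189, 134 and 137 UMIs. Its day 19 ratio of 1.26 had an interval of 1.00 to 1.58, and a difference of this size was at the edge of what its counts can show. These 2 inducible genes therefore did not share the size of the difference seen for *HSPA1A* and *DNAJB1*.

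*HSPB1* encodes HSP27, a small heat shock protein that holds unfolding proteins and protects the actin and sarcomere skeleton. It measured 477 CPM (473 to 481) in E19 HSTS, 647 CPM (642 to 653) in E19 HS and 1007 CPM (1001 to 1013) in E16 HS. Here E19 HSTS was the lowest library, at 0.737 (0.728 to 0.746) of E19 HS. Single cells held up to 227, 325 and 246 UMIs of it.

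*ZFAND2A* encodes AIRAP, a zinc finger protein that arsenite and heat induce and that associates with the proteasome. It measured 0.191 CPM (0.115 to 0.298) in E19 HSTS, 12.0 CPM (11.3 to 12.8) in E19 HS and 23.3 CPM (22.4 to 24.2) in E16 HS, from 19, 1065 and 2634 UMIs. E19 HSTS was 62.9-fold lower than E19 HS, and none of its 9618 cells held more than 1 UMI of the gene. In the HS libraries 8.84% and 19.1% of cells had at least 1. The gene thus stood at the opposite end from *HSPA1A* and *HSPA6*, although heat induces all 3. The glycolytic gene *GAPDH* was also near 0 in E19 HSTS alone, at 4.57, 1477 and 1314 CPM. These levels are those of UMIs that Cell Ranger gave to the rows of *ZFAND2A* and *GAPDH*, and how reads of either gene were assigned in E19 HSTS could not be checked.

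The stress-inducible HSP70 and HSP40 signal of E19 HSTS lay mostly in blood progenitor-like cells. These are clusters marked by *AHSP*, *ALAS2*, *KLF1*, *GATA1* and other red cell genes, all 7 measured markers of which were above the remaining cells in each library. The clusters were named from these markers, so that is no independent check. Clusters were formed without the heat shock and stress lists, so the genes discussed here did not place the cells. In E19 HSTS these cells held 92.6% of the *HSPA6* UMIs, 83.2% of the *HSPA1A* UMIs and 71.8% of the *DNAJB1* UMIs, but 42.1% of the 19 *ZFAND2A* UMIs. In E19 HS they held 58.1%, 60.1%, 42.8% and 42.4%. Of the UMIs of all genes they held 45.6% in E19 HSTS and 28.8% in E19 HS, so the shares of the libraries start from different bases. The median depth of blood progenitor-like cells, 17490 and 17570 UMIs in the day 19 libraries, was above that of other cells, 7250 and 6348 UMIs.

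Within blood progenitor-like cells *HSPA6* measured 20.3, 0.978 and 0.396 CPM. *HSPA1A* measured 85.7, 15.9 and 4.18 CPM, and *DNAJB1* measured 178, 57.0 and 33.9 CPM. The day 19 ratios were 20.7 (13.9 to 32.2), 5.38 (4.86 to 5.97) and 3.12 (2.95 to 3.30), against 20.6, 6.15 and 2.94 over all cells. For *HSPA1A* the 6.15 over all cells lies above both the 5.38 here and the 3.39 in all other cells. That pooled ratio thus depends also on the share of blood progenitor-like cells in each library. With each cell group given the same weight in both libraries, the ratios of *HSPA6*, *HSPA1A* and *DNAJB1* were 16.7, 4.797 and 2.536. Within blood progenitor-like cells 1.75% of all tested genes were at least 2-fold higher and 2.44% at least 2-fold lower in E19 HSTS. *BAG3* was 2.42-fold (1.20 to 5.40) higher there, from 43 and 10 UMIs. By contrast *HSPH1*, *HSPA8* and *HSPB1* stood at 0.945 (0.861 to 1.04), 0.959 (0.941 to 0.978) and 0.865 (0.843 to 0.887). *ZFAND2A* was 100-fold lower, at 0.176 against 17.7 CPM.

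The blood progenitor-like cells of the day 19 libraries came from clusters 5 and 6, whereas those of E16 HS came almost all from cluster 4. Within cluster 5 the day 19 ratios were 24.4 for *HSPA6*, 6.29 for *HSPA1A* and 3.40 for *DNAJB1*, and within cluster 6 they were 18.0, 4.37 and 2.68. *HSPA1A* was itself among the 10 leading genes of cluster 5.

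In the pool of all other cells the same 3 genes were higher in E19 HSTS by smaller factors. *HSPA6* measured 1.37 against 0.285 CPM, a ratio of 4.79 (2.83 to 8.53). *HSPA1A* measured 14.5 against 4.27 CPM, a ratio of 3.39 (2.95 to 3.91), and *DNAJB1* 58.6 against 30.9 CPM, a ratio of 1.90 (1.79 to 2.01). *ZFAND2A* was 47.9-fold lower, at 0.203 against 9.72 CPM. *HSPH1* at 1.41, *HSPA8* at 1.31 and *BAG3* at 1.37 were also above 1 outside blood, where the median log2 ratio of all genes was 0.21, and *HSPB1* at 0.794 was below 1. In these cells 1.64% of genes were at least 2-fold higher and 0.869% at least 2-fold lower.

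Free RNA from lysed cells can carry blood transcripts into other droplets. In E19 HSTS 6 red cell genes (*ALAS2*, *HEMGN*, *SLC4A1*, *AHSP*, *KLF1* and *GATA1*) stood in other cells at 1.14% to 1.72% of their level in blood progenitor-like cells, and in E19 HS at 0.440% to 1.05%. *HSPA6* stood at 6.74% (5.30 to 8.47), *HSPA1A* at 16.9% (15.8 to 18.1) and *DNAJB1* at 33.0% (31.8 to 34.1) in E19 HSTS. In E19 HS they stood at 29.1% (17.3 to 46.0), 26.8% (23.7 to 30.2) and 54.15% (51.8 to 56.6), that of *HSPA6* from few UMIs. By cell group of E19 HSTS the shares varied, and that of *HSPA6* rested on few UMIs. It ran from 0% in neural crest-like cells to 14.3% (1.73 to 51.5) in mesenchyme-like cells, and was 3.22% (0.0816 to 18.0) in haematoendothelial progenitor-like cells. In urogenital-like cells it was 10.1% (5.02 to 18.0), where *GATA1* stood at 5.90% (3.82 to 8.71). Red cell genes were also above their pooled share in other groups, such as *KLF1* at 6.82% (3.73 to 11.4) in early neuron-like cells. The part of free RNA in these levels was not tested.

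**Figure D2:**
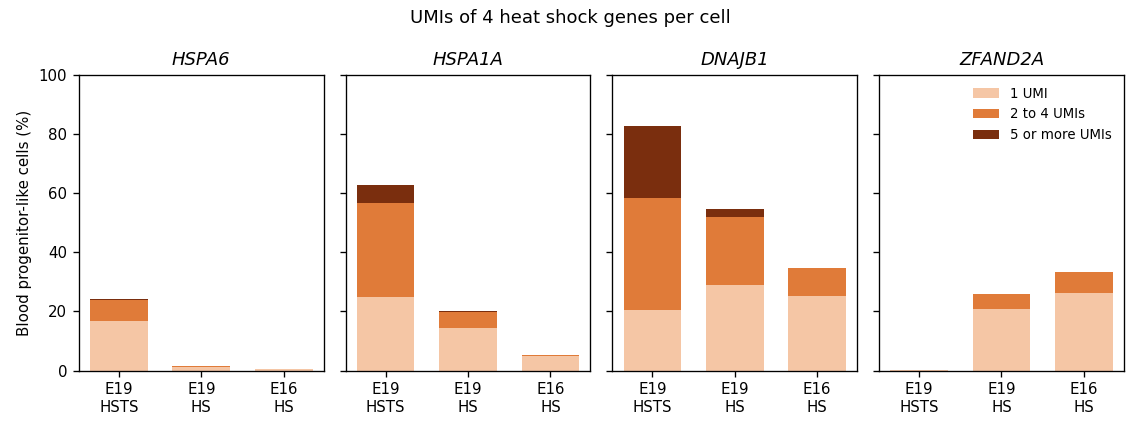
Stacked bars give the percent of blood progenitor-like cells in each library with 1, 2 to 4, or 5 or more UMIs of *HSPA6*, *HSPA1A*, *DNAJB1* and *ZFAND2A*, without thinning. In E19 HSTS 24.3% of these cells held 5 or more *DNAJB1* UMIs, against 2.68% in E19 HS, and the *ZFAND2A* bar of E19 HSTS is near 0.

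Counts per cell showed a broad difference rather than a few extreme cells. Among blood progenitor-like cells *HSPA1A* was seen in 62.8%, 20.1% and 5.23% of cells, and 5 or more UMIs in 6.03%, 0.423% and 0.0499%. The highest cell of any library held 17 UMIs of it. *HSPA6* was seen in 24.1%, 1.48% and 0.548% of these cells, with at most 6 UMIs in a cell. *ZFAND2A* was seen in 0.304%, 25.9% and 33.4%. Depth was nearly equal in the day 19 libraries for this cell group and lower in E16 HS, at 13950 UMIs.

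Among *HSPA6*, *HSPA1A* and *DNAJB1*, E19 HSTS blood progenitor-like cells with 1 of the genes held another somewhat more often than cells without it, a description of sparse counts. Thinned to 3000 UMIs, 140 blood progenitor-like cells of E19 HSTS held *HSPA6*, and 30.7% of them (23.2 to 39.1) also held *HSPA1A*, against 20.7% of those without *HSPA6*. The 550 such cells with *HSPA1A* held *DNAJB1* in 42.9% of cases, against 37.1% of those without. The heat-inducible *HSPH1* did not follow them throughout, with 6.43% of *HSPA6* cells against 7.73% of those without, 8.36% of *HSPA1A* cells against 7.47%, and 7.56% of *DNAJB1* cells against 7.72%. *BAG3* was found in 0.182% of *HSPA1A* cells against 0.442% of those without, and in 1.43% (0.174 to 5.07) of *HSPA6* cells against 0.327%. In E19 HS the 73 cells with *HSPA1A* held *DNAJB1* in 26.0% (16.5 to 37.6), against 13.4%. For the 74 E19 HS blood cells with *ZFAND2A* the share with *DNAJB1* was 13.5%, against 14.1%, and that with *HSPA1A* was 8.11%, against 5.02%.

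By cell group the day 19 ratios of *HSPA1A* and *DNAJB1* are given as a description. There were 12 cell groups with at least 50 cells in both libraries, including an unnamed cluster of shallow cells with a median of 1868 UMIs. Every named group but cardiomyocyte-like cells, at 7 of 8, had all its measured markers above the remaining cells in both day 19 libraries. The names were given from the same markers, so this is no independent check of them. *HSPA1A* was chosen on this comparison, and in some small groups, such as mesenchyme-like cells, it reached 10 UMIs through E19 HSTS. Nothing is therefore read from the number of groups in which it was higher. It was at least 2-fold higher in E19 HSTS in all 12 groups, from 2.11 (0.821 to 6.07) in early neuron-like cells, with a median of 3.05. The interval lay above 1 in 9 of them. Over all pairs of one of these groups and a gene with at least 100 UMIs in it, 1.3% were at least 2-fold higher and 0.972% at least 2-fold lower. Within groups the share higher ran from 0.56% to 2.21%, and the median log2 ratio of all genes from 0.001 in blood progenitor-like to 0.25 in somite-like cells.

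**Figure D3:**
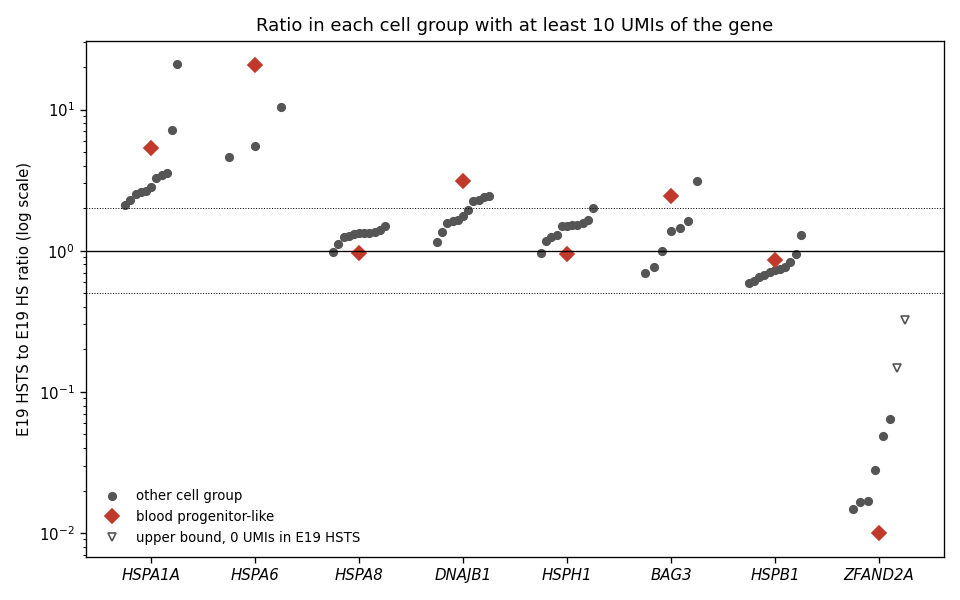
Each point is the E19 HSTS to E19 HS ratio of a gene in a cell group with at least 50 cells in both libraries and at least 10 UMIs of the gene, on a log axis, with blood progenitor-like cells as diamonds, upper bounds (3 UMIs for a count of 0) as open triangles, and lines at 1 and at 2-fold either way. *HSPA1A* and *DNAJB1* lie above 1 in all 12 groups and *HSPB1* below 1 in 11. *HSPA6* and *ZFAND2A* reached 10 UMIs mostly through the library in which they are high, as did *HSPA1A* in some small groups. Nothing is read from the side of 1 on which the points of these genes lie.

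The most extreme *HSPA1A* ratio rested on few UMIs. Mesenchyme-like cells held 17 UMIs in the HSTS and 1 in the HS library, a ratio of 21.0 (3.29 to 878). Extraembryonic endoderm-like cells, the yolk sac lineage that makes serum proteins, followed with 36.2 against 5.07 CPM, a ratio of 7.13 (3.22 to 18.6). Larger groups had narrower intervals, at 3.45 (2.75 to 4.36) in somite-like cells, 3.57 (2.55 to 5.07) in spinal cord-like cells and 3.26 (2.21 to 4.93) in urogenital-like cells. The name somite-like is a loose one. *TWIST1* was the only somite marker among the 10 leading genes of its clusters, and 4 of 8 markers were detected. In E19 HSTS 2881 cells were named somite-like, while 368 cells held both *TWIST1* and *MEOX1*. In E19 HSTS the *HSPA1A* level ran from 7.37 CPM in neural crest-like to 85.7 CPM in blood progenitor-like cells, with a median of 13.9 CPM over groups.

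*DNAJB1* was higher in E19 HSTS in all 12 groups, at least 2-fold in 5 and with an interval above 1 in 9. The ratio ran from 1.16 (0.708 to 1.92) in cardiomyocyte-like to 3.12 in blood progenitor-like cells, with a median of 1.86. *HSPA6* had at least 10 UMIs over both libraries in 4 groups, a number reached through E19 HSTS, so its direction there is not counted. Outside blood these were somite-like cells at 4.63 (1.70 to 15.7), spinal cord-like cells at 5.55 (1.11 to 53.6) and urogenital-like cells at 10.4 (1.52 to 449). In the neural crest-like cells of either day 19 library no *HSPA6* UMI was found, so a difference there was not detectable at this depth.

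*HSPH1* and *HSPA8* stood above 1 in 10 of 12 groups each, with medians of 1.49 and 1.32, and below 1 in blood progenitor-like and extraembryonic endoderm-like cells. *HSPH1* was highest against E19 HS in cardiomyocyte-like cells, at 2.00 (1.10 to 3.82). *HSPB1* stood below 1 in 11 of 12 groups, with a median of 0.736, and above 1 in haematoendothelial progenitor-like cells, at 1.29 (1.22 to 1.36). *BAG3* had at least 10 UMIs in 8 groups and stood above 1 in 5 of them. *ZFAND2A* had 0 to 8 UMIs in each of the 12 groups in E19 HSTS, against 5 to 451 in E19 HS, so that a group reached 10 UMIs through E19 HS and no count of directions is given. In neural crest-like cells it was at 0 of 949223 UMIs in E19 HSTS against 10 UMIs in E19 HS, at most 0.323 of the E19 HS level when 3 UMIs are taken as the limit of a count of 0.

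**Figure D4:**
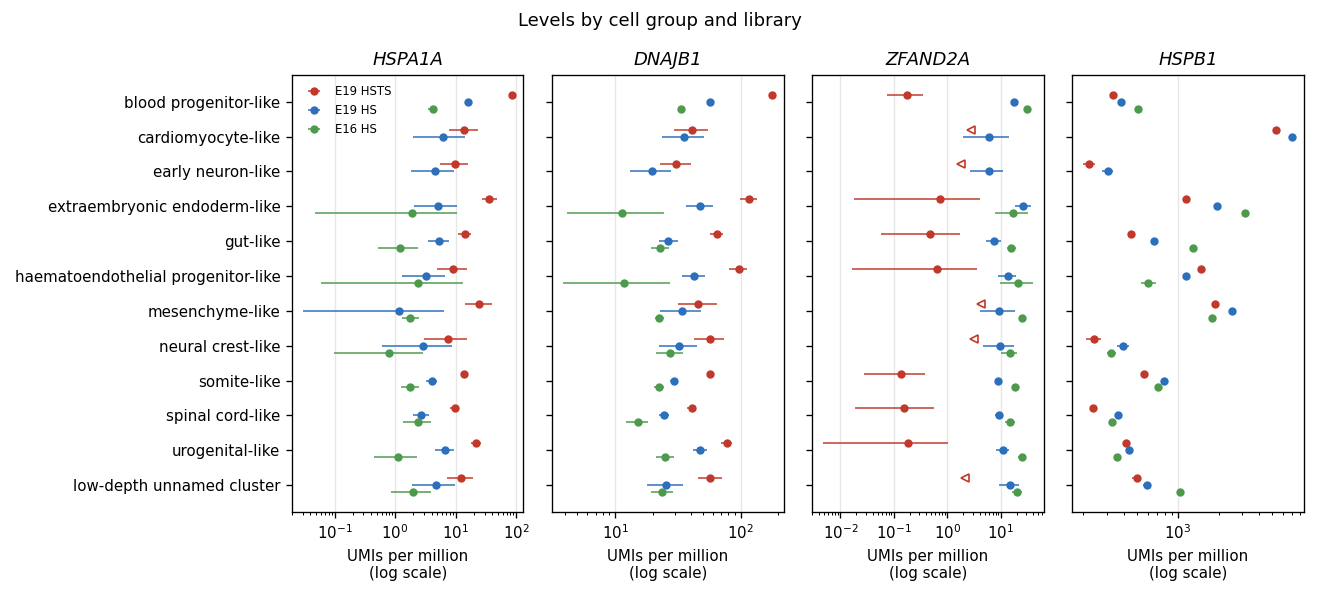
Points give the level of *HSPA1A*, *DNAJB1*, *ZFAND2A* and *HSPB1* in each of the 12 cell groups, in CPM on log axes, for libraries with at least 50 cells of the group, with exact Poisson 95% intervals for counting error and open triangles at the 3-UMI limit of a count of 0. *HSPA1A* and *DNAJB1* peak in the blood progenitor-like cells of E19 HSTS, whereas *HSPB1* peaks in cardiomyocyte-like cells, at 5300 CPM in E19 HSTS and 6937 CPM in E19 HS.

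*HSPB1* and *HSPA8* each had a cell type pattern, which both day 19 embryos had in common. *HSPB1* was highest in cardiomyocyte-like cells, with 5300 CPM (5163 to 5439) in E19 HSTS and 6937 CPM (6758 to 7120) in E19 HS, and next in mesenchyme-like cells, with 1881 and 2529 CPM. It was lowest in early neuron-like cells, with 222 and 304 CPM. *HSPA8* was lowest in blood progenitor-like cells, with 613 and 639 CPM, and highest in haematoendothelial progenitor-like cells, with 1852 and 1417 CPM. For *ZFAND2A*, with 19 UMIs in E19 HSTS, a pattern could be read in E19 HS only. There it ran from 5.89 CPM in early neuron-like to 26.1 CPM in extraembryonic endoderm-like cells, with blood progenitor-like cells next at 17.7 CPM.

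A small cluster of myeloid-like cells, marked by the macrophage genes *CSF1R* and *C1QB*, had high levels of the inducible genes. It held 20, 49 and 14 cells, fewer than the 50 cells asked of a group. *HSPA6* measured 124 CPM (73.5 to 196) in E19 HSTS and 17.6 CPM (6.46 to 38.3) in E19 HS, from 18 and 6 UMIs. *HSPA1A* measured 179 and 58.7 CPM, and *DNAJB1* 462 and 167 CPM. For all 3 genes the E19 HSTS and the E19 HS level of these cells was above that of blood progenitor-like cells of the same library.

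Between days 16 and 19 in Hu sheep, a comparison that shares the E19 HS library with the one above, *HSPA1A* and *DNAJB1* were lower and *ZFAND2A* higher at the earlier day. None of the 8 genes was at least 2-fold higher in E16 HS, and *HSPA1A* was at least 2-fold lower. Of 11336 tested genes 6.47% were at least 2-fold higher and 5.13% at least 2-fold lower, with a median log2 ratio of 0.25, and 11.6% passed 2-fold in either direction. *HSPA6* had under 100 UMIs in this pair and was not counted. *HSPA1A* was 3.28-fold lower, at a ratio of 0.305 (0.263 to 0.352), and *DNAJB1* stood at 0.665 (0.632 to 0.699). *HSPA6*, with 33 and 43 UMIs, stood at 0.602 (0.370 to 0.969) over all cells, at 0.904 (0.463 to 1.79) outside blood progenitor-like cells and at 1.16 as a mean over cells, so its direction depends on the measure. *BAG3* stood at 0.801, with an interval of 0.627 to 1.02 that holds 1.

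*ZFAND2A* at 1.94 (1.81 to 2.08) fell just short of 2-fold, and *HSPB1* stood at 1.56 (1.54 to 1.57). *HSPA8* at 1.21 and *HSPH1* at 1.19 were close to the median of all genes. *DNAJB1* was lower in E16 HS in all 11 groups with at least 50 cells in both libraries. In the 8 of these groups with at least 10 UMIs of *HSPA1A*, that gene was lower in 7 and higher in 1, with an interval below 1 in 4. Over all pairs of a tested gene and one of these 11 groups, 9.06% were at least 2-fold higher and 3.29% at least 2-fold lower. *ZFAND2A* was higher in 10 of 11 groups, at least 2-fold in 4, up to 2.63 (from 8 UMIs in E19 HS) in mesenchyme-like cells.

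For *HSPB1* the library sums and the cell groups differed in direction between the days. In E16 HS mesenchyme-like cells held 38562 of its 113974 UMIs and an unnamed cluster led by the uroplakin genes *UPK2* and *UPK3A* held 19528. That cluster numbered 329 cells in E16 HS and 7 in E19 HS, and mesenchyme-like cells 1527 and 93. Within cell groups *HSPB1* was lower in E16 HS in 7 of 11 and higher in 4. With each group given the same weight in both libraries, its mean share of UMIs, the ratio was 0.960. That ratio covers only groups with at least 50 cells in both libraries, so the uroplakin cluster is not in it. In blood progenitor-like cells, drawn from different clusters at each day, *HSPA1A* stood at 0.262, *DNAJB1* at 0.594, *ZFAND2A* at 1.75 and *HSPA8* at 1.57, where the median log2 ratio of all genes was 0.86 and 39.1% of genes were at least 2-fold higher and 1.07% at least 2-fold lower. In all other cells these shares were 5.24% and 5.93%, and the same genes stood at 0.403, 0.739, 2.14 and 1.11.

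Other genes of protein quality control were set beside the 8 in 13 lists. Over all kept cells neither transcription factor gene passed 2-fold at day 19: *HSF1* measured 2.44, 2.87 and 4.81 CPM and *HSF2* 20.8, 16.8 and 12.7 CPM. Their day 19 ratios were 0.849 (0.709 to 1.02) and 1.24 (1.16 to 1.33). By cell group *HSF2* was higher in E19 HSTS in all 12 groups, with a median of 1.446. It was at least 2-fold higher in 3 and had an interval above 1 in 7. In all cells other than blood progenitor-like ones *HSF2* stood at 1.501 (1.397 to 1.613), where the median log2 ratio of all genes was 0.21. *HSF1* was higher in 3 and lower in 4 of the 7 groups with at least 10 UMIs of it. Transcript levels say nothing of HSF1 activity, which is set on the protein.

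In E19 HSTS against E19 HS over all kept cells, 1 gene of the chaperone and stress lists outside the 8 was at least 2-fold higher. Another 2 were at least 2-fold lower. The higher gene was *DNAJA4*, a heat-inducible J protein, at 4.40 against 2.06 CPM, a ratio of 2.13 (1.79 to 2.55), the only such gene of 14 tested J proteins, exchange factors and ligases of HSP70. It was 1.47-fold (1.21 to 1.80) higher within blood progenitor-like cells and 1.99-fold (1.35 to 2.95) higher in other cells. None of 8 HSP90 and HSP90 co-chaperone genes passed 2-fold, from *HSP90AB1* at 0.826 to *FKBP5* at 1.26, with a list median log2 ratio of 0.09. The pooled *HSP90AB1* ratio differs in direction from most cell groups, as it stood above 1 in 10 of 12, with a median of 1.06, at 1.04 (1.04 to 1.05) in all other cells and at 0.703 (0.694 to 0.713) in blood progenitor-like cells. *HSPCA*, the row for the HSP90 alpha gene under an older symbol, measured 2539, 2354 and 3406 CPM. None of 7 other HSP70 and HSP110 genes passed it either, from *HSPA14* at 0.907 to *HSPA4* at 1.06.

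Over all kept cells, lists for other compartments had no gene past 2-fold at day 19. The pooled medians of the endoplasmic reticulum, mitochondrial, chaperonin and proteasome lists lay below the -0.05 of all genes. No gene passed 2-fold among 16 endoplasmic reticulum chaperones, with a median log2 ratio of -0.07 and values from *MANF* at 0.755 to *HYOU1* at 1.23. The same count was 0 of 7 mitochondrial chaperones, from *GRPEL1* at 0.749 to *DNAJA3* at 1.11, with a median of -0.15. It was 0 of 11 chaperonin and prefoldin subunits, from *PFDN2* at 0.760 to *CCT3* at 1.03, with 10 of the 11 below 1 and a median of -0.24. Of 30 proteasome genes, the machine with which *ZFAND2A* protein associates, 0 passed 2-fold and 25 stood below 1, with a median log2 ratio of -0.20. Of 9 ubiquitin and other *ZFAND* genes 0 passed it, from *ZFAND1* at 0.732 to *ZFAND3* at 1.12. Of 8 integrated stress response genes 0 passed it, from *DDIT4* at 0.680 to *PPP1R15A* at 1.24. Of 3 other small heat shock protein genes 0 passed it, and *CRYAB*, a lens and muscle chaperone, stood at 0.787. Of 3 heat shock factors and regulators 0 passed it. These pooled values do not give the direction within cell groups. By group the summed endoplasmic reticulum list ran from 0.970 in the shallow unnamed cluster to 1.40 in neural crest-like cells. It stood at 0.987 in blood progenitor-like cells and at 1.26 in somite-like cells, where the median log2 ratio of all genes was 0.25. The summed mitochondrial list ran from 0.693 in blood progenitor-like to 1.20 in gut-like cells.

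Immediate early genes are the other known mark of warm dissociation. Over all kept cells of day 19, 1 of 22 was at least 2-fold lower and 0 at least 2-fold higher, with a list median log2 ratio of 0.15. *KLF2*, an endothelial flow-response factor, was the lower gene, at 0.472 (0.409 to 0.543). *FOS*, the fastest of these transcription factors, had the highest ratio of 1.91 (1.87 to 1.96), at 219 against 115 CPM. In blood progenitor-like cells *FOS* measured 236 against 16.8 CPM, a ratio of 14.1 (12.8 to 15.6), and in other cells 205 against 154 CPM, a ratio of 1.33 (1.30 to 1.37). *ATF3* did pass 2-fold in other cells, at 2.14 (1.92 to 2.40), where 1.64% of all genes did, and *JUN* stood at 1.11 there. Of 11 groups with at least 10 *ATF3* UMIs it was higher in 10 and lower in 1. It was at least 2-fold higher in 6, where 1.3% of all pairs of gene and group were. Of the 12 groups, blood progenitor-like cells had the largest ratio of *FOS* and also of *DNAJB1*. The other members did not all share this. *HSPA1A* had its largest ratio in mesenchyme-like cells, from few UMIs, and *HSPH1* and *HSPA8* had their lowest ratios in blood progenitor-like cells, at 0.945 and 0.959. The summed list stood at 3.23 (3.11 to 3.35) in blood progenitor-like cells and between 0.833 and 1.73 in the other 11 groups. *FOS* carried much of the blood value: without it, a sum added after its values were seen, the list measured 177 against 111 CPM there, a ratio of 1.59 (1.52 to 1.66). That lies within the 0.923 to 1.69 of the other 11 groups. Among 8 genes of oxidative and arsenite stress, which also induces *ZFAND2A*, the metal-binding *MT1A* was at least 2-fold lower, at 0.419 (0.401 to 0.438), and *GCLM*, of glutathione synthesis, had the highest ratio at 1.52 (1.41 to 1.65). The part of dissociation in these differences was not tested.

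**Figure D5:**
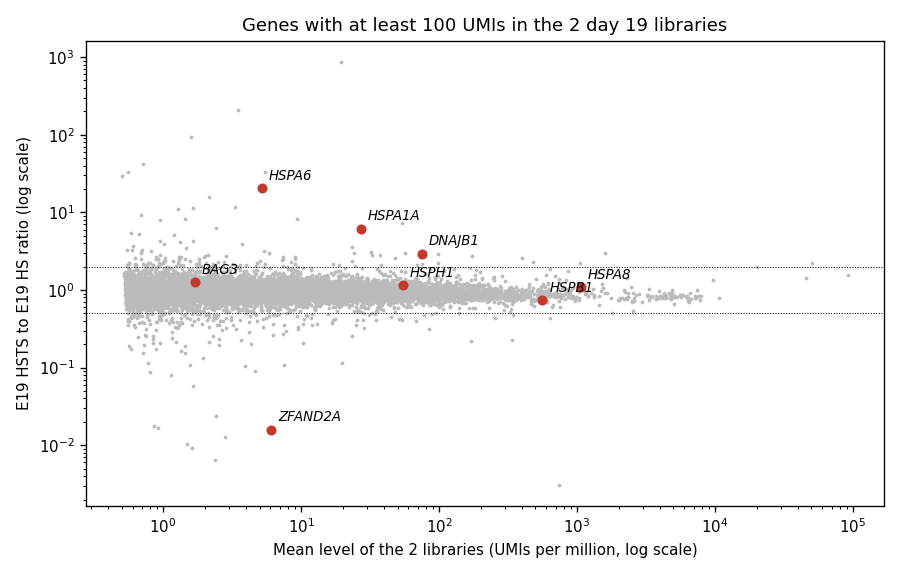
Each grey point is a gene with at least 100 UMIs in the day 19 libraries (11149 genes), by its mean level in CPM and its ratio of E19 HSTS to E19 HS, both on log axes, with the 8 heat shock genes in red and dotted lines at 2-fold either way. *HSPA6*, *HSPA1A* and *DNAJB1* lie above the upper line and *ZFAND2A* far below the lower line, while the other 4 lie between the lines.

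At day 16 immediate early genes were lower along with *HSPA1A*, while 5 lists of chaperones and proteasome genes had medians above that of all genes. Against the median log2 ratio of 0.25 over all genes, that of the HSP90 list was 0.36, of the chaperonin list 0.47, of the proteasome 0.49, of mitochondrial chaperones 0.57 and of endoplasmic reticulum chaperones 0.63. The other HSP70 and HSP110 genes at -0.09, J proteins, exchange factors and ligases at 0.18 and small heat shock proteins at -0.95 lay below it. Of 21 immediate early genes 12 were at least 2-fold lower in E16 HS than in E19 HS and 1, *FOSL2*, at least 2-fold higher, with a median log2 ratio of -1.28. *FOS* measured 3.48 against 115 CPM, a ratio of 0.0304, and it was at least 2-fold lower in all 11 cell groups. *MCL1*, the anti-apoptotic gene of the list, stood at 1.28. Of 7 integrated stress response genes 3 were at least 2-fold lower, namely *DDIT3*, *PPP1R15A* and *PSAT1*, and none stood above 1, from *DDIT3* at 0.306 to *ATF4* at 0.930. *MT1A* at 0.126 and *CRYAB* at 0.200 were lower too.

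All 30 proteasome genes stood above 1 in E16 HS, 3 of them at least 2-fold, where 6.47% of all genes were, with values from *PSMA7* at 1.18 to *PSME4* at 2.07. All 16 endoplasmic reticulum chaperone genes stood above 1, from *HSPA5* at 1.04 to the collagen chaperone *SERPINH1* at 3.02 (2.94 to 3.11). Of 7 mitochondrial chaperone genes *LONP1*, a protease, was at least 2-fold higher, at 2.20 (2.11 to 2.29), and *GRPEL1* lowest at 1.37. The lists of other HSP70 and HSP110 genes, HSP90, J proteins, chaperonin and ubiquitin had no gene past 2-fold. Their extremes were *HSPA4* at 1.95 and *HSPA4L* at 0.645, *AHSA1* at 1.80 and *CHORDC1* at 1.07, *DNAJA2* at 1.64 and *DNAJB5* at 0.745, and *CCT6A* at 1.65 and *PFDN5* at 0.921. The highest ratio of the ubiquitin and *ZFAND* list was that of *VCP*, at 1.71. *TXN*, thioredoxin, stood at 1.45, *HSF1* at 1.68 and *HSF2* at 0.754.

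Over the 38 combinations of cell group and library with at least 50 cells, *HSPA1A*, *HSPA6* and *DNAJB1* varied together, while the other heat-inducible members did not follow them. Pearson's r of log2(CPM + 1) was 0.826 between *HSPA1A* and *DNAJB1*, 0.771 between *HSPA6* and *HSPA1A* and 0.645 between *HSPA6* and *DNAJB1*. With *HSPA1A* it was -0.021 for *HSPH1* and 0.234 for *BAG3*. It was 0.838 between *HSPH1* and *HSPA8*, -0.156 between *HSPA1A* and *HSPA8*, and -0.715 between *HSPA1A* and *ZFAND2A*. These points share 3 libraries, so a difference between libraries alone raises or lowers r. Among 7537 other genes the closest to *HSPA1A* were *FNBP1* and *KMT5A*, both at 0.634, and *PRXL2A* at 0.604, all below its r with *DNAJB1*. The closest to *ZFAND2A* were *GAPDH* at 0.915, *MRTO4* at 0.876 and *YRDC* at 0.846, each lowest in E19 HSTS. *GAPDH* was lower in E19 HSTS in all 12 groups, at 0.00292 to 0.00619 of E19 HS. The closest to *HSPA8* were *DHX15* at 0.910, *HSPCA* at 0.907 and *PRPF6* at 0.880.

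The summed level of the 8 genes on each side of the filter's limits is given with no test. Cells with 8% to 10% mitochondrial UMIs, which were kept, had 2816, 3184 and 2784 CPM. Those with 10% to 12%, which were left out, had 2329, 2815 and 2504 CPM. With 25000 to 30000 UMIs the levels were 1441, 1394 and 2831 CPM, and with 30000 to 35000 they were 1871, 1480 and 3111 CPM. With 1000 to 1200 UMIs they were 1955, 1716 and 1971 CPM, and with 800 to 1000 they were 2071, 1897 and 1823 CPM.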

How the data were processed

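The authors aligned reads and counted UMIs with Cell Ranger 6.1.2 and analysed them with Seurat 4.1.1 in R 4.1.2, and they deposited raw UMI counts per gene and cell for each library. The study names its sheep reference as Ovis_aries_genome_v1.0. A cell was kept with a gene number of 200 to 6000, a UMI total of 1000 to 30000 and a mitochondrial share of up to 10%, which left 86.5% to 89.6% of deposited cells and 88733467 to 113213654 UMIs per library. Cells of the 3 libraries were clustered together in Seurat 5.3.0 (R 4.3.3) on 1973 variable genes, after 27 genes of the chaperone and stress lists were left out, with 25 principal components and resolution 0.25, into 19 clusters named from marker lists without batch correction. Where the 10 leading genes held too few markers, the leading 30 were used, a choice made after the clusters were seen. Sums, thinning and exact intervals were computed in Python 3.11.15 (numpy 2.4.6, scipy 1.17.1, pandas 2.3.3), doublet scores in scanpy 1.11.5 and TMM factors in edgeR 4.0.16. The computation was tested on simulated data. Genes with at least 100 UMIs in a pair entered counts past 2-fold, and a ratio within a cell group was counted from 10 UMIs. Alternatives were other cell filters, TMM, thinning, means over cells, weighting by cell group, finer clusters, marker pairs, and leaving out blood progenitor-like cells or likely doublets. The weight of a cell group was its mean share of UMIs, over groups with at least 50 cells in both libraries.

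The 8 genes and all lists were chosen with earlier results of these data known. Named genes are the 8, *HSF1*, *HSF2*, the extremes of each list among genes with at least 500 UMIs, genes past 2-fold in a list, and the 3 genes most like *HSPA1A*, *ZFAND2A* and *HSPA8*. *GAPDH*, *HSP90AB1*, *HSF2* and *ATF3* per group, *FOS* in blood, *JUN*, *HSPA1L* and *HSPCA* were added after their values were seen. So were the endoplasmic reticulum and mitochondrial lists per group. In the lists 22 genes have no row by symbol, among them *HSP90AA1*, *HSPD1* and *DNAJA1*. No genome or sequence table was used here, so promoters and their heat shock elements were not analysed here.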

Additional observations from a re-analysis of the deposited data

Results flagged for a closer look

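For several genes a ratio of the same 2 libraries had opposite directions in different cell groups, each with an interval that does not hold 1. These differences between groups were not tested, since each library is 1 sample.

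Between E19 HSTS and E19 HS, *HSPA8* stood at 1.499 (1.36 to 1.65) in mesenchyme-like cells and 0.959 (0.941 to 0.978) in blood progenitor-like cells, with 10 groups above 1 and 1 below. *HSPB1* stood at 1.29 (1.22 to 1.36) in haematoendothelial progenitor-like cells and 0.586 (0.551 to 0.624) in extraembryonic endoderm-like cells, with 1 group above 1 and 10 below.

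Between E16 HS and E19 HS, *HSPH1* stood at 1.94 (1.77 to 2.12) in blood progenitor-like cells and 0.156 (0.0662 to 0.317) in extraembryonic endoderm-like cells, with 3 groups above 1 and 2 below. *HSPA8* stood at 1.57 (1.54 to 1.61) in blood progenitor-like and 0.558 (0.501 to 0.621) in extraembryonic endoderm-like cells, with 9 groups above 1 and 1 below. *HSPB1* stood at 1.94 (1.86 to 2.02) in gut-like and 0.531 (0.465 to 0.603) in haematoendothelial progenitor-like cells, with 4 groups above 1 and 7 below. The blood progenitor-like cells of the HS libraries come from different clusters.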

How the results depend on the processing

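No paired analysis was possible because each group has 1 library. No direction of the sum of the 8 genes turned. Its day 19 ratio of 1.02 became 1.01 with at least 500 genes and at most 5% mitochondrial UMIs (the strict filter), 1.13 without blood progenitor-like cells, 1.07 with TMM, 1.045 with thinned cells, 1.04 as a mean over cells and 1.11 with cell groups weighted alike. That of the 7 genes without *HSPA8*, 0.933, became 0.883 without blood, 0.970 with TMM, 0.895 thinned, 0.864 as a mean over cells and 0.949 weighted. The day 16 ratio of the 8, 1.32, became 1.34 with the strict filter, 1.27 without blood, 1.34 without likely doublets (the 8% highest scores), 1.14 with TMM, 1.23 thinned, 1.40 with all deposited cells, 1.21 as a mean over cells and 1.11 weighted. That of the 7, 1.48, became 1.51 with the strict filter, 1.49 without likely doublets, 1.28 with TMM, 1.35 thinned, 1.65 with all deposited cells, 1.32 as a mean over cells and 0.969, below 1, weighted.

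At day 19, 4 genes were past 2-fold in every alternative except without blood progenitor-like cells, where 3 were and *DNAJB1* was at 1.90. There *HSPA6* stood at 4.79 in place of 20.6 and *HSPA1A* at 3.39 in place of 6.15. At day 16 the count of 1 became 2 without blood, thinned and as a mean over cells, and 5 at a fold of 1.5. That last count includes *HSPA6*, which has under 100 UMIs in this pair. The share of all genes past 1.5-fold was not computed, so nothing is read from it. *HSPA6* at day 16 turned from 0.602 to 1.16 as a mean over cells, and *HSPB1* from 1.56 to 0.960 with cell groups weighted. In blood progenitor-like cells the day 19 ratios of *HSPA6* (19.7 to 20.7), *HSPA1A* (5.20 to 5.42) and *DNAJB1* (3.05 to 3.12) held with finer clusters, marker pairs and likely doublets left out. The cause of these shifts was not tested. With 1 library per group, the spread between embryos is unknown, and *HSPA6* outside E19 HSTS rests on under 50 UMIs per library. The motif search in promoters was not run.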
